A study of Mus musculus with 6 samples.

Results

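The genes followed here encode 10 transcription factors of the AP-1 group and the early growth response family, namely *Fos*, *Fosb*, *Fosl1*, *Fosl2*, *Jun*, *Junb*, *Jund*, *Atf3*, *Egr1* and *Egr2*. They were picked by gene symbol from the 57180 genes of the deposited table, and 9 of the 10 had enough counts to be tested between genotypes. The cells were osteoclast precursors (OCPs), which are macrophages from bone marrow that have been started on the way to osteoclasts, and the libraries' labels call them bone marrow-derived macrophages. RNA was sequenced from 3 cultures of wildtype (WT) C57BL/6 mice and 3 cultures of mice lacking lincRNA-EPS (KO), a long noncoding RNA listed as *Ttc39aos1*. All 6 cultures received M-CSF at 40 ng/ml for 24 h and then RANKL at 40 ng/ml for 48 h, so that the data hold no culture without RANKL and no time course. The series calls the replicates biologically independent without naming the animals, and the age and sex of the donors of these cultures are not given in the sources used here. The labels also give each library a batch of its own. No batch is thus shared by WT and KO, and batch cannot be told apart from replicate or genotype.

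AP-1 is a dimer of basic leucine zipper proteins. Members of the Fos family (Fos, Fosb, Fosl1 and Fosl2) bind DNA only together with a partner, usually of the Jun family, whereas Jun, Junb and Jund can also pair with each other, and Atf3 is a related protein that pairs with Jun proteins and often represses. Many of these genes, with *Egr1* and *Egr2*, are immediate-early genes, which are transcribed within minutes of a signal without new protein synthesis and whose mRNAs are short-lived. In osteoclast differentiation RANKL signals through MAP kinases to AP-1, and Fos with Jun proteins helps to induce NFATc1, the main transcription factor of osteoclast genes.

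The deposited values were estimated counts of mRNA libraries, with a total of 17757351 to 19998611 counts per library, and are given below as CPM, which are counts scaled to the size of the library after TMM normalization. The targeted transcript *Ttc39aos1* was counted 20, 37 and 41 times in the WT libraries, and it was at 0 in all 3 KO libraries, where 0 allows up to 3 counts. The libraries held macrophage markers, with all 8 of 8 listed genes passing the expression filter and a summed level of 16498 to 17638 CPM in WT and 14863 to 17667 CPM in KO. All 8 macrophage markers had a log2 fold change below 0 (median -0.26, and -0.20 with 7 of 8 below 0 after a correction for GC content), 5 of them at an unadjusted p under 0.05 by edgeR (13.2% of all genes). DESeq2, which called 0.695% of all genes lower, did so for 2 of them, *Mertk* (-0.57) and *Fcgr1* (-0.64), values of the size of those of *Jun* and *Atf3* below. The other macrophage markers had smaller differences, from -0.29 for *Adgre1* to -0.0035 for *Cd68*. All 8 osteoclast markers passed too, with sums of 4678 to 5042 CPM in WT and 6419 to 6773 CPM in KO. Neutrophil markers, of which 9 of 10 passed, summed to 1256 to 1416 CPM in WT and 1681 to 2024 CPM in KO, with none of the 10 at 0 in all libraries. Their median log2 fold change was 0.49, and 6 of the 9 were higher and 1 lower at an unadjusted p under 0.05 by edgeR (13% and 13.2% of all genes). DESeq2 called 4 higher (0.521% of all genes), or 6 after the GC correction (1.75% of all genes). Markers of T and NK cells (1 of 6 passed), B cells (4 of 4), stromal cells (2 of 6), erythroid cells (0 of 6) and mast cells or basophils (2 of 4) summed to at most 20.1 CPM in any library, and *Hbb-bt* and *Tpsb2* were at 0 in all libraries. Among these, the mast cell or basophil markers summed to 0.876 to 1.63 CPM in WT and 2.75 to 3.05 CPM in KO, without overlap. The B cell markers summed to 5.14 to 6.32 CPM in WT and 6.35 to 8.05 CPM in KO, also without overlap. The part of these other cells and of the macrophage marker difference in the results below was not tested. Libraries also differed with the GC content of a gene's transcript. Over 12127 genes, taken as a description since genes are not replicates, the KO minus WT difference had r = -0.549 with GC content, and within a genotype the deviation from the group mean had r from -0.636 in KO replicate 3 to 0.538 in WT replicate 2. All 10 transcription factor genes lay above the median GC content of the tested genes, 49.2%, so values are given with and without a correction of every library for GC content.

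No gene of the 10 passed the limits of an adjusted p under 0.01 and a fold change above 1.3 in edgeR's quasi-likelihood test. The same test called 1 of all 13428 genes, which is 0.00745%. That gene was *Dtx3l*, named after its value was seen. The deleted *Ttc39aos1*, with no count in KO, was itself not called by this test (adjusted p = 0.12). At an unadjusted p under 0.05, 3 of the 9 tested genes were lower in KO, *Jun*, *Jund* and *Atf3*, against 13.2% of all genes, and 0 were higher, against 13% of all genes. With the GC correction edgeR also called none of the 9, and 0.0223% of all genes. DESeq2's Wald test at the same limits called *Jun* and *Atf3* lower in KO and none of the 9 higher, where it called 0.695% of all genes lower and 0.521% higher. The same 2 genes were called lower by DESeq2 after the GC correction and again none higher, against 1.49% and 1.75% of all genes. With a log2 fold change above 1.3 in place of the fold change, an alternative added after the data were seen, none of the 9 genes was called by edgeR or DESeq2. Fewer cells that express a gene and less RNA of it per cell cannot be told apart in these cultures.

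**Figure D1:**
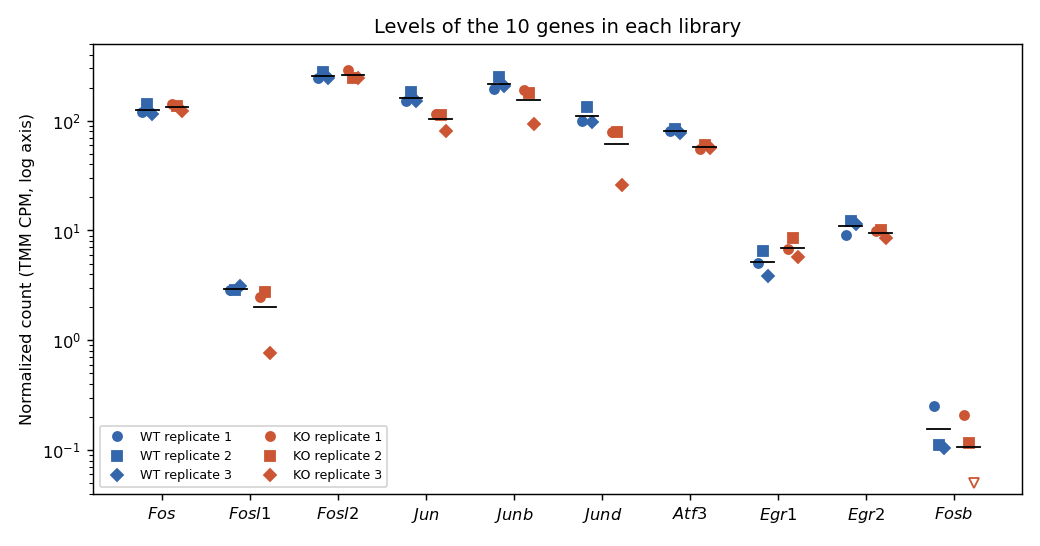
Normalized counts (TMM CPM, log axis) of the 10 genes in each library, with WT in blue, KO in red, a marker shape for each replicate number and black bars for the group means. All KO libraries lie below all WT libraries for *Fosl1*, *Jun*, *Junb*, *Jund* and *Atf3*, as for 18.8% of all genes tested. KO replicate 3 stands apart for *Fosl1*, *Junb* and *Jund*, and the open triangle marks *Fosb* at 0 counts in KO replicate 3.

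*Atf3* (ENSMUSG00000026628, chr1:191170296-191218039 in GRCm38, minus strand, 3 transcripts with 4 to 5 exons) encodes a stress-induced bZIP factor that limits inflammatory transcription in macrophages. In replicates 1, 2 and 3 its level was 80.5, 83.4 and 76.5 CPM in WT and 54.8, 59.7 and 56.9 CPM in KO. The KO libraries were all below the WT libraries and both groups were tight, at 80.1 ± 3.46 CPM and 57.1 ± 2.46 CPM (SD, n = 3 each). The log2 fold change of *Atf3* was -0.49 (standard error 0.09, 95% interval -0.69 to -0.28), a KO level of 0.713 times WT, with an adjusted p = 0.136 by edgeR's quasi-likelihood test and 0.000674 by DESeq2. By edgeR's p-value *Atf3* was number 44 of the genes tested. After the GC correction the log2 fold change of *Atf3* was -0.40 (adjusted p = 0.0464 by edgeR and 0.00183 by DESeq2). KO replicate 3 differed from the mean of the other KO libraries by only -0.0065 on the log2 scale for *Atf3*, the smallest such difference among the 9 genes.

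*Jun* (ENSMUSG00000052684, chr4:95049034-95052222 in GRCm38, minus strand) is a gene of 1 exon whose protein is the classical partner of Fos. Its level was 150, 183 and 150 CPM in the WT libraries and 116, 113 and 79.8 CPM in the KO libraries, from 1568 to 3342 counts each. The groups did not overlap, with WT replicate 2 the highest and KO replicate 3 the lowest library. The group means of *Jun* were 161 ± 19 CPM in WT and 103 ± 20 CPM in KO (SD, n = 3 each). Between genotypes *Jun* differed by a log2 fold change of -0.65 (standard error 0.15, 95% interval -1.0 to -0.30), a KO level of 0.639 times WT, with an adjusted p = 0.147 by edgeR's quasi-likelihood test and 0.00928 by DESeq2. Without KO replicate 3 the log2 fold change of *Jun* was -0.49. Corrected for GC content, the *Jun* libraries were 146, 158 and 144 CPM in WT and 114, 115 and 97.9 CPM in KO. They again did not overlap, and the log2 fold change came to -0.46 with a standard error of 0.08 (adjusted p = 0.0449 by edgeR and 0.000208 by DESeq2). At an adjusted p under 0.05 with the same fold change, edgeR's GC-corrected fit called *Jun* and *Atf3* lower, beside 0.424% of all genes. Both calls were lost when any WT library or KO replicate 2 was left out of that fit (adjusted p = 0.134 to 0.161 for *Jun* and 0.156 to 0.17 for *Atf3*). That of *Jun* was also lost without KO replicate 3 (adjusted p = 0.0516), and that of *Atf3* without KO replicate 1, where its log2 fold change was -0.34. The antisense gene *Junos* shares 232 exonic bases with *Jun* and had 49 to 92 counts per library.

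The promoters of *Jun* and *Atf3*, the 2 genes that passed the limits in DESeq2, are shown beside that of *Fos*, whose uncorrected levels overlapped between genotypes. Each sequence is the 250 bases before the transcription start in RefSeq on GRCm38.p6, written 5′ to 3′ along the gene's own strand. Capitals mark matches on either strand to TNACNTCA, letters that take in the cyclic AMP response element, at which Jun and ATF proteins bind, and variants of it. The letters were chosen after the sequences were read, so that the matches are a description.
*Jun* promoter, chr4:95052223-95052472, minus strand: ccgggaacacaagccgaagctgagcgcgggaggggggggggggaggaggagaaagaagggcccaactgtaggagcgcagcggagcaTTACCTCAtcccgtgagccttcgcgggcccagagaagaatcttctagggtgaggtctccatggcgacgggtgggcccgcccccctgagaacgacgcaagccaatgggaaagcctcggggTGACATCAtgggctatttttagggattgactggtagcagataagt
*Atf3* promoter, chr1:191183334-191183583, minus strand: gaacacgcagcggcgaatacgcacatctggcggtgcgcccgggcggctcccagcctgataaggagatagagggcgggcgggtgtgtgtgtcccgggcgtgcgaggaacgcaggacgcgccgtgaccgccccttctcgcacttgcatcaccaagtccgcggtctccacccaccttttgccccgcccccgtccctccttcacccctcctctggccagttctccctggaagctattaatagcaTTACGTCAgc
*Fos* promoter, chr12:85473640-85473889, plus strand: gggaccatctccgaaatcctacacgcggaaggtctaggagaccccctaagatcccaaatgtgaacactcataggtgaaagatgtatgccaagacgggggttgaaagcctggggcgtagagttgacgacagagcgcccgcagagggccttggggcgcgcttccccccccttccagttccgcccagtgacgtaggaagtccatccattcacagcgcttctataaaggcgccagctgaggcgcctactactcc
The *Jun* window holds 2 matches, TTACCTCA at 164 bases and TGACATCA at 45 bases before the start, and the *Atf3* window, which lies inside the longest GENCODE model of the gene, holds TTACGTCA at 10 bases before its start. Since the letters were taken from the *Jun* and *Atf3* windows, the absence of a match in the *Fos* window shows no difference between the genes. Counted in mismatches to the cyclic AMP response element itself, on either strand, the closest stretch of each of the 3 windows had 1 mismatch, and in *Fos* it was TGACGACA at 129 bases before the start. Of 32851 promoter windows of the same length, 14% hold at least 1 match. RefSeq windows were also found for *Fosb*, *Fosl2*, *Junb*, *Jund* and *Egr2*. Among these, *Jund* held 1 match, TGAGGTGA as read along the gene, in a window that lies upstream of the start in GENCODE. *Fosb* and *Fosl2* each held GCGGGGGCG, a match to the Egr1 letters GCGNGGGCG that 4.7% of windows hold, and 4 of the 5 windows of *Egr2* held a CArG box, the binding site of serum response factor, which 1.47% of windows hold. The last 3 of those *Egr2* windows overlap and share 1 site. TGACTCA, the core AP-1 site, was in none of the windows of these genes and in 4.46% of all windows.

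The other Jun genes had larger spread. *Junb* (ENSMUSG00000052837, chr8:84974484-84978718, minus strand) encodes a Jun protein with weaker activating function that is abundant in myeloid cells. Its level was 195, 250 and 206 CPM in WT and 191, 177 and 93.9 CPM in KO. The groups did not overlap, but KO replicate 1 lay just under WT replicate 1, and KO replicate 3 lay far below the rest. For *Junb* the log2 fold change came to -0.50 with a standard error of 0.24 (adjusted p = 0.21 by edgeR's quasi-likelihood test), and -0.24 without KO replicate 3. After the GC correction it was -0.058 (adjusted p = 0.656) and the groups overlapped, and without KO replicate 3 the corrected value was 0.015, on the other side of 0. The transcript of *Junb* has a GC content of 62.58%.

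*Jund* (ENSMUSG00000071076, chr8:70698949-70700616, plus strand, 1 exon) encodes the Jun protein that resting cells keep at a steady level, and its transcript has the highest GC content of the 10, 67.15%. Its level was 99.4, 133 and 98.2 CPM in WT and 79.4, 78.3 and 26 CPM in KO. All KO libraries were below all WT libraries, with KO replicate 3 at -1.60 on the log2 scale from the mean of the other KO libraries, further than the genotypes lay apart. The genotypes differed in *Jund* by a log2 fold change of -0.85 (standard error 0.35, 95% interval -1.65 to -0.046, adjusted p = 0.176 by edgeR's quasi-likelihood test), and -0.48 without KO replicate 3. With the GC correction the WT libraries were 85.5, 88.2 and 81.9 CPM and the KO libraries 73.4, 84.3 and 55.1 CPM, which overlapped. The corrected log2 fold change of *Jund* was -0.26 (adjusted p = 0.239), and -0.10 without KO replicate 3. The predicted gene *Gm11175* shares 877 exonic bases with *Jund* on the opposite strand and had at most 1.66 counts in a library. *Junb* likewise shares 173 exonic bases with *Prdx2*. Whether strand was used in the counting is not given in the sources used here, so reads of *Fosl1*, *Jun*, *Junb* and *Jund* over such stretches are uncertain.

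**Figure D2:**
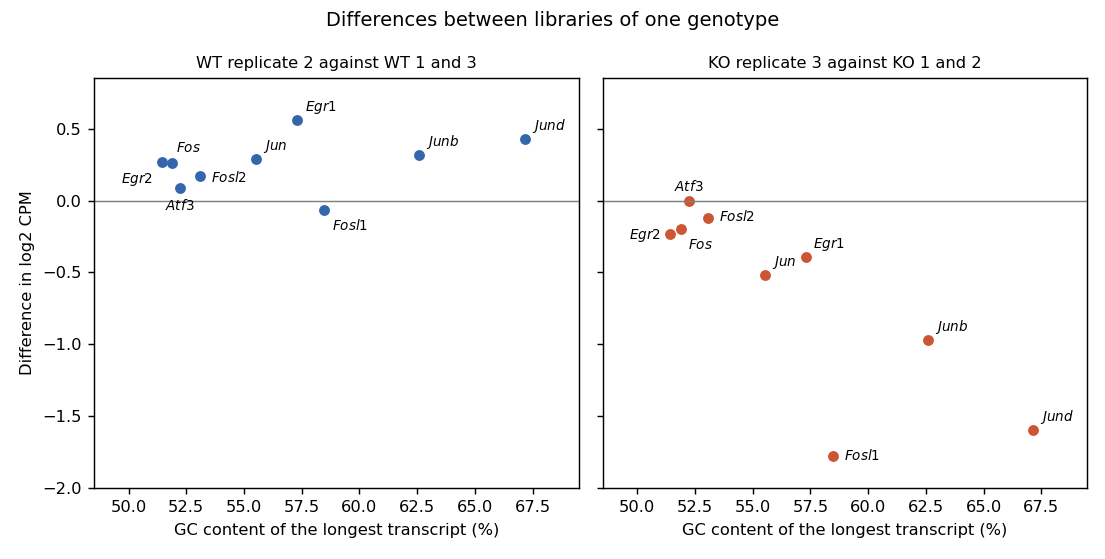
Difference in log2 CPM between libraries of a single genotype (vertical axes) against the GC content of the longest transcript (horizontal axes, %) for the 9 tested genes, with WT replicate 2 against the mean of WT replicates 1 and 3 on the left and KO replicate 3 against the mean of KO replicates 1 and 2 on the right. *Jund* and *Junb*, with the highest GC content, were at 0.43 and 0.32 in WT and at -1.60 and -0.97 in KO, and *Atf3* was close to 0 in both.

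KO replicate 3 was below the mean of the other KO libraries for each of the 9 tested genes, with log2 differences from -0.0065 for *Atf3* to -1.78 for *Fosl1*. WT replicate 2 was above the mean of the other WT libraries for 8 of the 9, from 0.088 for *Atf3* to 0.56 for *Egr1*, the exception being *Fosl1* at -0.064. Both libraries had the strongest relation of their deviations to GC content in their genotype, as given above. The plot of within-genotype differences against GC content shows these values for each gene. For *Jun* they were -0.52 in KO and 0.29 in WT. The part of GC content in the differences between genotypes was not tested beyond the corrected values.

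*Fos* (ENSMUSG00000021250, chr12:85473890-85477273, plus strand, 3 to 4 exons) encodes the factor without which mice form no osteoclasts. Its level was 120, 141 and 115 CPM in WT and 143, 137 and 122 CPM in KO. The groups overlapped, at 125 ± 13.4 CPM and 134 ± 10.8 CPM (SD, n = 3 each). The log2 fold change of *Fos* was 0.10 (standard error 0.11, adjusted p = 0.566 by edgeR's quasi-likelihood test), with a 95% interval of -0.15 to 0.35, so neither a small decrease nor a small increase was outside the error. The GC-corrected libraries were 119, 133 and 113 CPM in WT and 142, 139 and 133 CPM in KO. On that scale the lowest KO library and the highest WT library were equal to 3 digits, with no overlap. The corrected log2 fold change of *Fos* was 0.18 (95% interval 0.014 to 0.35, unadjusted p = 0.0363 and adjusted p = 0.165 by edgeR).

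*Fosl2* (ENSMUSG00000029135, chr5:32135801-32157842, plus strand) encodes the Fos-related protein Fra-2. Its level was 243, 276 and 246 CPM in WT and 287, 245 and 244 CPM in KO, and the groups overlapped. For *Fosl2* the log2 fold change was 0.021 (standard error 0.10, 95% interval -0.21 to 0.26, adjusted p = 0.904 by edgeR's quasi-likelihood test), and its sign turned when some single libraries were left out. After the GC correction it was 0.14 (adjusted p = 0.247).

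*Fosl1* (ENSMUSG00000024912, chr19:5447547-5455946, plus strand) encodes Fra-1, which can take the place of Fos in osteoclast formation. It was low, at 2.86, 2.85 and 3.1 CPM in WT and 2.5, 2.76 and 0.764 CPM in KO, from 15.31 to 58.51 counts. The KO libraries were all below the WT libraries, KO replicates 1 and 2 by little, and the groups overlapped after the GC correction. *Fosl1* had a log2 fold change of -0.56 with a standard error of 0.37 (adjusted p = 0.343 by edgeR's quasi-likelihood test) and -0.16 without KO replicate 3, so the difference rested on that library. Corrected for GC content it was -0.29 (adjusted p = 0.557 by edgeR). *Fosl1* shares 1163 exonic bases with *Ccdc85b* on the opposite strand, a gene that had 232.38 to 295.56 counts in the other libraries and 142.69 counts in KO replicate 3. *Fosb* (ENSMUSG00000003545, chr7:19302696-19310051, minus strand), which encodes a Fos protein best known from neurons, was close to undetected. It had 5, 2 and 2 counts in WT and 4, 2 and 0 counts in KO, where a count of 0 allows up to 3, so a difference was not detectable at this depth. *Fosb* was below the expression filter of the edgeR fit, and it was not called in the fits without that filter or in DESeq2.

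*Egr1* (ENSMUSG00000038418, chr18:34859823-34864984, plus strand) encodes a zinc finger factor that serum response factor induces. Its level was 5.06, 6.51 and 3.83 CPM in WT and 6.72, 8.51 and 5.75 CPM in KO, from 73 to 148 counts. WT replicate 2 lay above KO replicate 3, so the groups overlapped. The log2 fold change of *Egr1* was 0.44 (standard error 0.23, 95% interval -0.07 to 0.96, adjusted p = 0.235 by edgeR's quasi-likelihood test). Corrected for GC content, the libraries were 4.86, 5.41 and 3.64 CPM in WT and 6.6, 8.7 and 7.56 CPM in KO, without overlap. The corrected log2 fold change of *Egr1* was 0.71 (standard error 0.18, adjusted p = 0.0718 by edgeR and 0.0177 by DESeq2), the largest increase among the 9 tested genes. *Egr2* (ENSMUSG00000037868, chr10:67535475-67542188, plus strand) encodes a related factor that acts in macrophage differentiation. It had 9.08, 12.3 and 11.5 CPM in WT and 9.95, 10.2 and 8.55 CPM in KO, with overlap. For *Egr2* it was -0.20 on the log2 scale (standard error 0.16, adjusted p = 0.422 by edgeR's quasi-likelihood test) and -0.13 after the GC correction (adjusted p = 0.535).

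**Figure D3:**
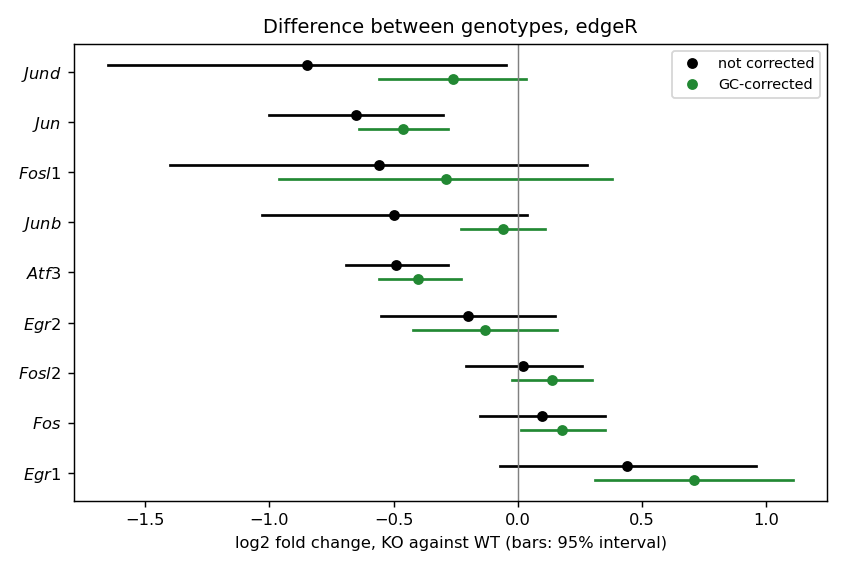
Log2 fold change of the 9 tested genes, KO against WT, from edgeR's quasi-likelihood fit without (black) and with (green) the GC correction. Points are estimates and bars are 95% intervals. The intervals of *Jun* and *Atf3* stay below 0 in both fits, and that of *Jund* reaches from -1.65 to -0.046 before the correction and crosses 0 after it. Those of *Fos* and *Egr1* lie above 0 only after the correction.

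Counted without a test, 5 of the 9 genes had all KO libraries below all WT libraries (*Fosl1*, *Jun*, *Junb*, *Jund* and *Atf3*) and 0 had all above, where 18.8% and 16.9% of all genes tested did. With GC-corrected values 2 of the 9 were lower without overlap (*Jun* and *Atf3*) and 2 were higher (*Fos* and *Egr1*), beside 17.1% and 15% of all genes. At an unadjusted p under 0.05 in the GC-corrected edgeR fit the same genes passed, with *Jun* and *Atf3* lower and *Fos* and *Egr1* higher, beside 13.5% and 12.4% of all genes. The median log2 fold change of the 9 was -0.49 without and -0.13 with the correction, and that of all genes tested was 0.0091 and -0.0033.

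Per length, as RPKM, in which CPM are divided by the length of the longest transcript in kilobases, the order of mean levels over all libraries was *Junb*, *Fos*, *Jund*, *Jun*, *Fosl2*, *Atf3*, *Egr2*, *Egr1*, *Fosl1* and *Fosb*. The order differed between genotypes, with *Jund* number 2 in WT and number 4 in KO, and *Fosl2* number 6 in WT and number 3 in KO. *Junb* had 120 ± 16 RPKM in WT and 85 ± 28.9 RPKM in KO (SD, n = 3 each), and *Fos* had 59.4 ± 6.38 and 63.7 ± 5.15 RPKM. *Jund* was at 66.2 ± 12 RPKM in WT and 36.7 ± 18.3 RPKM in KO, and *Jun* at 50.5 ± 5.96 and 32.3 ± 6.26 RPKM. *Fosl2* had 39 ± 2.79 RPKM in WT and 39.6 ± 3.74 RPKM in KO. The ranges of these 5 genes and of *Atf3* (40.4 ± 1.74 and 28.8 ± 1.24 RPKM) overlapped from each neighbour to the next. The remaining genes were well below, with *Egr2* at 2.89 to 4.15 RPKM, *Egr1* at 0.854 to 1.9, *Fosl1* at 0.41 to 1.66 and *Fosb* at 0 to 0.0663 RPKM over the 6 libraries. Of the 9 neighbouring pairs in this order, 3 had ranges that did not overlap, *Atf3* over *Egr2*, *Egr2* over *Egr1* and *Fosl1* over *Fosb*. With the union of all annotated exons as the length, the mean over all libraries was 26.5 RPKM for *Fosl2*, below the 31.9 RPKM of *Atf3*, and 55.2 RPKM for *Fos*.

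The summed level of the Jun family (*Jun*, *Junb* and *Jund*) was 215, 275 and 220 RPKM in the WT libraries and 189, 180 and 92.6 RPKM in the KO libraries. The Fos family (*Fos*, *Fosb*, *Fosl1* and *Fosl2*) summed to 95.7, 110 and 94 RPKM in WT and 113, 104 and 95.8 RPKM in KO. On this scale the Jun sums did not overlap between genotypes and the Fos sums did. With the GC correction the Jun sums were 196, 204 and 196 RPKM in WT and 181, 189 and 150 RPKM in KO, closer together and still without overlap. The corrected Fos sums were 94.4, 103 and 92.2 RPKM in WT and 112, 105 and 106 RPKM in KO, and no longer overlapped, with KO higher. Singly, of the tested genes of these families only *Jun* and *Fos* were without overlap after the correction. The ratio of Jun to Fos family levels, formed after the values were seen, was 2.24, 2.49 and 2.34 in WT and 1.67, 1.73 and 0.966 in KO. From GC-corrected values the ratio was 2.07, 1.98 and 2.13 in WT and 1.61, 1.8 and 1.42 in KO, a smaller gap but again without overlap. Among single genes tested, 18.8% were lower without overlap before the correction and 17.1% after it, and 15% were higher after it. No such share was computed for sums or ratios. Within the Fos family the makeup was nearly the same in all libraries, with *Fos* at 58.2% to 62.6% and *Fosl2* at 35.9% to 40.1% of the summed level. *Junb* made up 50.1% to 51.8% of the Jun family level in WT and 54.2% to 56.1% in KO. In KO replicate 3 *Jund* was at 16.9% and *Jun* at 27%, where the other libraries had 25.2% to 29% and 19.1% to 21.9%. With the GC correction that library had 22% and 20.4%.

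**Figure D4:**
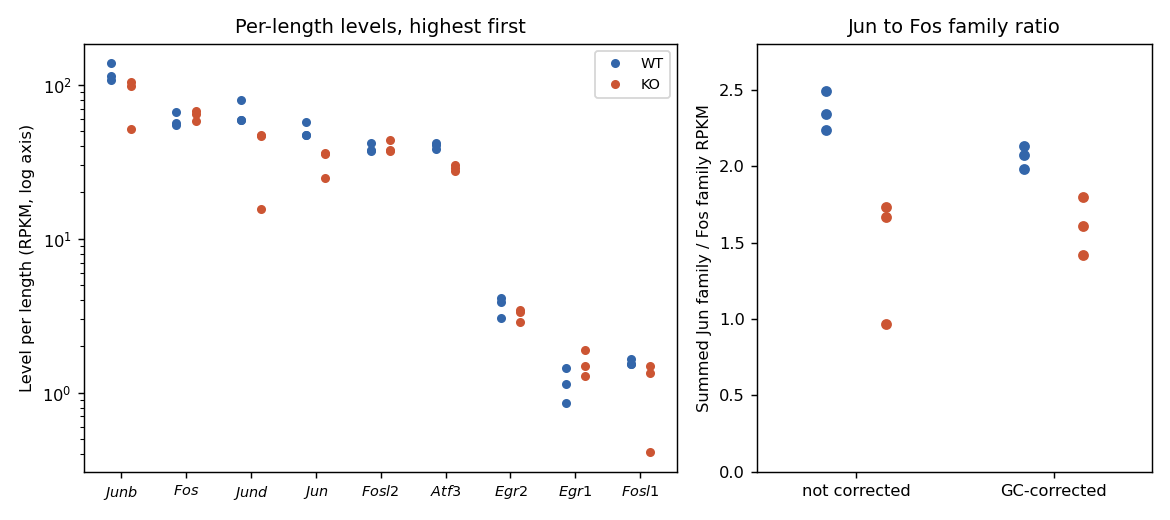
Left, level per length (RPKM, log axis) of 9 genes in each library in the order of their mean over all libraries (*Fosb*, at 0 to 0.0663 RPKM, is not drawn), with WT in blue and KO in red. Right, summed Jun family level over summed Fos family level in each library, without and with the GC correction. The WT libraries lie at 2.24 to 2.49 and the KO libraries at 0.966 to 1.73 before the correction.

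Genes of related bZIP proteins, only some of which pair with AP-1 proteins, were read next. Of 23 such genes of the AP-1, ATF, CREB, Maf and C/EBP families, all tested, 6 were higher and 17 lower in KO at any size, where 49% of all genes were lower, with a median log2 fold change of -0.17 (-0.10 with the GC correction). No gene of the list passed the limits in edgeR's quasi-likelihood test, 3 were called lower and 0 higher by DESeq2 (0.695% and 0.521% of all genes), and at an unadjusted p under 0.05 edgeR had 7 lower and 1 higher (13.2% and 13% of all genes). After the GC correction 4 were lower and 1 higher at that p (13.5% and 12.4% of all genes), and DESeq2 called 2 lower (1.49% of all genes). Lower genes with the smallest p included *Maf*, *Cebpa* and *Atf5*. *Maf*, a macrophage factor, had 112, 124 and 118 CPM in WT and 78.3, 73.6 and 84.1 CPM in KO, without overlap (log2 fold change -0.59, adjusted p = 0.12 by edgeR, and -0.65 with adjusted p = 0.0123 after the GC correction). The myeloid factor *Cebpa* had a log2 fold change of -0.82 that was -0.33 after the correction, and *Atf5*, a stress-response factor, had -0.60 and -0.18. The lowest value of the list was -1.45 for *Cebpb* (standard error 0.57, adjusted p = 0.165, and -0.98 after the correction), named after its value was seen.

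Among other immediate-early genes, 31 of 32 tested, the median log2 fold change was -0.26 (-0.087 after the GC correction), with 23 lower and 8 higher at any size. None passed the limits in edgeR's quasi-likelihood test and 1 was called lower by DESeq2 (0.695% of all genes), while 7 were lower and 1 higher at an unadjusted p under 0.05 (13.2% and 13% of all genes). Corrected for GC content, 6 were lower and 2 higher at that p (13.5% and 12.4% of all genes), and DESeq2 again called 1 lower (1.49% of all genes). *Ier5*, a regulator of heat shock factor, had 95.7, 96.7 and 89.5 CPM in WT and 67.2, 61.9 and 50.4 CPM in KO (log2 fold change -0.65, adjusted p = 0.136 by edgeR, and -0.56 with adjusted p = 0.0289 after the correction). *Klf2*, which restrains myeloid activation, had a log2 fold change of -0.89 that became -0.46 after the correction. The small GTPase gene *Rhob* had -0.43 and -0.22, and *Dusp4*, a phosphatase of MAP kinases, had -0.45 and -0.24. The higher gene was *Ier3*, at 6.47, 6.4 and 7.71 CPM in WT and 9.32, 7.99 and 9.67 CPM in KO (0.39, adjusted p = 0.161, and 0.56 with adjusted p = 0.092 after the correction).

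The regulators that act on these genes were described in the same way. Serum response factor, its partners and the Egr corepressors of the NAB family gave 8 tested genes, 7 lower and 1 higher at any size, with a median log2 fold change of -0.27 that was -0.073 after the GC correction. At an unadjusted p under 0.05, 4 were lower and 0 higher in edgeR's quasi-likelihood test (13.2% and 13% of all genes), and 0 passed the limits in edgeR or DESeq2. The GC correction left 2 lower at that p (13.5% of all genes), and DESeq2 called 1 lower, *Mrtfb* (adjusted p = 0.00467), beside 1.49% of all genes. *Srf* itself, with a transcript GC content of 64.41%, had a log2 fold change of -0.69 (adjusted p = 0.148) and -0.14 after the correction. *Nab2*, which represses Egr1, had -0.39 and then -0.0011. The coactivator gene *Mrtfb* had -0.45 and -0.43, and its relative *Mrtfa* had -0.63 and -0.33. Of 19 MAP kinase pathway genes, all tested, 13 were lower and 6 higher at any size, with a median of -0.13 (-0.081 corrected), 5 lower and 2 higher at an unadjusted p under 0.05 (13.2% and 13% of all genes) and 0 past the limits in edgeR or DESeq2. With that correction 3 were lower and 0 higher at that p (13.5% and 12.4% of all genes), and DESeq2 again called 0. The p38 activator *Map2k6* had a log2 fold change of 0.40 (adjusted p = 0.178 by edgeR, and 0.33 after the correction) and the kinase gene *Rps6ka2* had -0.49 (adjusted p = 0.147, and -0.33 after it).

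Genes reported downstream of Fos and NFATc1 in osteoclasts were read last. The list also holds *Nfatc1* itself, *Ifnb1*, *Id1*, *Id2* and *Id3*, so its counts and median do not cover induced osteoclast genes alone. Of 14 listed, 13 were tested, 10 were higher and 3 lower in KO at any size, where 49% of all genes were lower, and the median log2 fold change was 0.28 (0.32 after the GC correction). The 3 lower were *Id3* (-0.29), *Id1* (-0.15) and *Itgb3* (-0.012). At an unadjusted p under 0.05 edgeR's quasi-likelihood test had 6 higher and 0 lower, beside 13% and 13.2% of all genes. None of the 13 passed the limits in edgeR and 4 were called higher by DESeq2, beside 0.521% of all genes. With the GC correction 1 passed the limits in edgeR, *Dcstamp* (0.79, adjusted p = 0.00531), and 6 were called higher by DESeq2, beside 1.75% of all genes. *Nfatc1* had 267, 324 and 269 CPM in WT and 332, 282 and 266 CPM in KO, with overlap (log2 fold change 0.033, adjusted p = 0.872 by edgeR, and 0.17 with adjusted p = 0.198 after the correction). *Acp5*, the gene of the osteoclast enzyme TRAP, had 998, 1005 and 1039 CPM in WT and 1410, 1348 and 1200 CPM in KO without overlap (0.38, adjusted p = 0.147, and 0.59 with adjusted p = 0.0241 after the correction). *Atp6v0d2*, a proton pump subunit needed for fusion, had a log2 fold change of 0.88 and *Oscar*, a costimulatory receptor, one of 0.70, both with an adjusted p = 0.136, and after the correction 0.64 and 0.73. The protease genes *Ctsk* and *Mmp9* and the fusion gene *Dcstamp* had 0.77, 0.28 and 0.84, and after the correction 0.76, 0.47 and 0.79. For *Mmp9* the adjusted p was 0.207 before and 0.0464 after it by edgeR. Osteoclast markers shared with this list had the higher sums in KO given above.

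**Figure D5:**
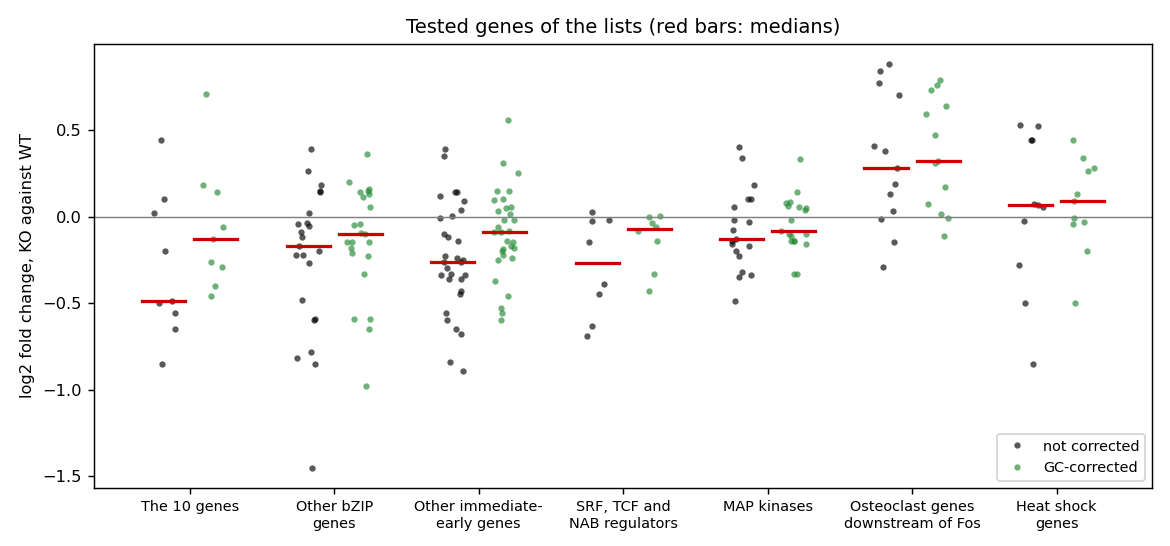
Log2 fold change, KO against WT, of each tested gene in the 10 transcription factor genes and 6 related lists, without (black) and with (green) the GC correction, with red bars at the medians. The medians of the 5 lists on the left are below 0 and closer to 0 after the correction, and that of the osteoclast genes is 0.28 before and 0.32 after it.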

How the data were processed

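RNA was sequenced from 3 WT and 3 KO OCP cultures at the provider Majorbio, from stranded mRNA libraries. The authors deposited 1 table of estimated counts per gene, not normalized and with 25.1% to 26.6% of the detected values of a library not whole. It names all 57180 genes and also holds 2 columns of the authors' means, which were not used. The submitters' processing notes name fastp, HISAT2, StringTie, RSEM and the build GRCm39, and the versions are not given in the sources used here. Positions, lengths and GC content were taken from GENCODE M21 on GRCm38, and promoters from RefSeq on GRCm38.p6, so that they are not of the build behind the counts. A RefSeq window was used for 8 of the 10 genes.

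Values were rounded to whole numbers before testing. In R 4.3.3, edgeR 4.0.16 kept genes by filterByExpr with genotype as group, scaled the libraries by TMM and compared genotypes with glmQLFit (legacy = FALSE) and glmQLFTest without covariates, on 13428 genes. Adjustment was by Benjamini-Hochberg over all genes tested. The limits were an adjusted p under 0.01 and a fold change above 1.3 (0.379 on the log2 scale). The study prints 1.3 as a limit on the log2 scale, and here it was taken as a fold change, with the log2 limit as an alternative. DESeq2 1.42.0 and limma-voom (limma 3.58.1) were alternatives. For the GC correction, the deviation of each library from the mean was fitted against GC content by a natural spline (5 degrees of freedom) and entered as offsets. It reached 98.1% of the tested genes. The other alternatives were other scalings, filters and limits, the replicate number as a block and each library left out. The depth sets a floor of 3 counts, 0.15 to 0.173 CPM, for counting error only. With 3 libraries per genotype an exact permutation test cannot go below p = 0.1, so none was used. All pairs of libraries differed beyond sampling noise, with a lowest chi-square per degree of freedom of 3.77. The fits were tested on simulated counts.

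Besides the 10 genes, the text names up to 4 genes per list and direction with the smallest p among those with an unadjusted p under 0.05 and a fold change above 1.3, 4 osteoclast genes, *Ttc39aos1*, and for *Fos* and the most variable of the 10 genes at 10 CPM or more the 5 genes with the most similar pattern. The genes and lists were chosen with earlier results of these data known. A gene that this rule would name is not reported here.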

Additional observations from a re-analysis of the deposited data

How the results depend on the processing

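The number of the 10 genes past the limits was 0 in edgeR's quasi-likelihood test and 2 (*Jun* and *Atf3*) in DESeq2 and in DESeq2 with the GC correction, while it was 0 under the other 24 alternatives, leaving out any library included. Libraries were left out in edgeR only, so whether the DESeq2 calls hold without single libraries was not tested. Over all genes the count was 1 of 13428 in edgeR and 126 of 10357 in DESeq2 (54 higher and 72 lower). It was 3 of 13428 with the GC correction in edgeR, and 342 of 10562 with that correction in DESeq2 (185 higher and 157 lower). With a limit of 1.3 on the log2 scale it was 1 in edgeR and 3 in DESeq2, with 0 of the 10 genes and 0 of the related lists in either. With single libraries left out it was 0 to 2, and 1 to 78 with the GC correction, 78 being without KO replicate 1 and 4 without KO replicate 3. Over the 6 related lists it was 0 of 105 genes in edgeR, 8 of 106 in DESeq2 (4 higher and 4 lower) and 1 of 105 with the GC correction in edgeR. With that correction in DESeq2 it was 11 of 105 (7 higher and 4 lower). With the correction in edgeR it was 7 and 1 of 105 without KO replicate 1 or 3. The correction with a library left out, the log2 limit and all alternatives for the lists, were added after the data were seen. The cause of these differences was not tested. *Fosl2* reversed without WT replicate 1 (-0.014), WT replicate 3 (-0.0045) or KO replicate 1 (-0.056), and *Junb* with the GC correction and without KO replicate 3 (0.015). Without single libraries the log2 fold change was -0.73 to -0.49 for *Jun*, -0.52 to -0.46 for *Atf3*, -0.68 to -0.24 for *Junb*, -1.08 to -0.48 for *Jund*, -0.85 to -0.16 for *Fosl1*, 0.27 to 0.65 for *Egr1*, -0.32 to -0.11 for *Egr2*, 0.043 to 0.19 for *Fos* and -0.056 to 0.081 for *Fosl2*. Over the fits the adjusted p ranged from 0.000208 to 0.442 for *Jun*, 0.000674 to 0.442 for *Atf3*, 0.0177 to 0.506 for *Egr1*, 0.0799 to 0.502 for *Jund*, 0.106 to 0.905 for *Junb*, 0.165 to 0.874 for *Fos*, 0.246 to 0.993 for *Fosl1*, 0.247 to 0.99 for *Fosl2* and 0.289 to 0.835 for *Egr2*.

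The labels number the replicates 1 to 3 in both genotypes, but same-numbered libraries did not deviate together (r = -0.281, 0.114 and 0.224 over 13428 genes), and not every library correlated best with its own number. With the replicate block 0 of the 10 genes and 1 of all genes passed the limits, and *Jun*, *Atf3* and *Jund* had log2 fold changes of -0.66, -0.49 and -0.99 (adjusted p = 0.0747, 0.078 and 0.0799 by edgeR). With the block and the GC correction together, *Jun* and *Atf3* had an adjusted p = 0.0732 and 0.0886, where the correction alone gave 0.0449 and 0.0464. With 73 to 148 counts for *Egr1*, 15.31 to 58.51 for *Fosl1* and at most 5 for *Fosb*, depth limits what can be said of these genes.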

Other observations

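Heat shock genes, which also respond quickly when cells are handled, were read beside the 10 genes. Of 12 listed, 11 were tested, 7 were higher and 4 lower in KO at any size, and the median log2 fold change was 0.069 (0.087 after the GC correction). No gene passed the limits in edgeR's quasi-likelihood test or in DESeq2, and at an unadjusted p under 0.05 edgeR had 4 higher and 1 lower, beside 13% and 13.2% of all genes. After the GC correction 4 were higher and 0 lower at that p (12.4% and 13.5% of all genes), and DESeq2 called 1 higher, *Hspd1* (adjusted p = 0.00488), beside 1.75% of all genes. The cochaperone gene *Dnaja1* had 162, 139 and 156 CPM in WT and 189, 206 and 266 CPM in KO, without overlap (log2 fold change 0.53, adjusted p = 0.147 by edgeR, and 0.28 after the correction). The mitochondrial chaperone genes *Hspd1* and *Hspe1* had log2 fold changes of 0.52 and 0.44 (0.44 and 0.34 after the correction), and *Hsp90aa1*, the inducible Hsp90 gene, had 0.44 (0.26 after it). The lower gene was *Hspa1a*, an inducible Hsp70 gene with a near-identical neighbour copy between which reads may have been split, at 1.35, 2.03 and 1.15 CPM in WT and 0.833, 0.632 and 1.02 CPM in KO (-0.85, adjusted p = 0.161, and -0.50 after the correction).

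Genes with a pattern over the 6 libraries like that of *Fos* and of *Jund*, the most variable of the 10 genes at 10 CPM or more, were found among 8867 genes by the mean absolute difference of centred log2 CPM. Closest to *Fos* were *Tnfaip3*, an inhibitor of NF-κB signalling (0.0303), *Rhof* (0.0391), *Sdc1* (0.0395), *Sema7a* (0.0401) and *Htra2* (0.041). *Tnfaip3* had 102, 120 and 103 CPM in WT and 120, 116 and 98.9 CPM in KO, with overlap. Closest to *Jund* were *AKAP17A* (0.0771), *Crocc* (0.0989), *Crlf2* (0.117), *Map3k10* (0.134) and *Zfpm1* (0.149). *Crocc* had 12.5, 15.7 and 11 CPM in WT and 9.11, 8.74 and 3.41 CPM in KO, with the lowest value in KO replicate 3 as for *Jund*. Of these 5 genes, the 4 with a GC value had a transcript GC content of 63.93% to 66.81%, and that of *Jund* was 67.15%.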
